A study of Mus musculus with 6 samples.

Results

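Genes that mark the serous ovarian and the mesothelial lineage were followed in 6 mouse tumours. The group was a list of 10 symbols, namely Pax8, Wt1, Msln, Muc16, Wfdc2, Upk3b, Upk1b, Lrrn4, Bnc1 and Gpm6a, matched to Ensembl identifiers in a table of 16344 genes. Of these 10, 9 had a value, and Wfdc2 was not analysed here. The tumours grew from the murine cell line 60577, a syngeneic model of high-grade serous ovarian cancer, placed in the abdominal cavity and left for 21 days. All animals share this 1 line and, per the protocol, 3 weekly cycles of carboplatin. Afterwards 3 of the tumours came from mice given the CSF1R inhibitor AZD7507 by daily gavage, which the protocol sets at 84 days, and 3 from mice given vehicle. Tumours were taken at the humane endpoint. The labels give no strain, age, genotype of the line or day of collection, and do not tie tumours to animals, so each p-value below reflects only how much the sampled tumours vary.

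The mesothelium is the flat epithelium that lines the abdominal cavity and covers its organs. Müllerian epithelia, such as that of the oviduct, arise from the same embryonic coelomic lining, and serous carcinomas share several of their marker genes with mesothelium. PAX8, a paired-box transcription factor, is commonly used in pathology to tell Müllerian tumours from mesothelium, whereas WT1 is found in both. Mesothelin and the mucin MUC16, the carrier of the CA125 antigen, bind each other and are known for their part in the adhesion of ovarian cancer cells to the peritoneal lining.

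Upstream sequences of 4 of the genes are shown because these 4 span the pattern of the values: Upk3b was the most abundant, Lrrn4 and Muc16 varied most among the abundant ones, and Pax8 was close to the lowest values of the table. Each is the stretch of 250 bases before the RefSeq transcription start, from GRCm38.p6, 5′ to 3′ on the strand of the gene. Capitals mark matches, on either strand, to 6 motifs. The GC box was searched as GGGCGG, the box bound by the TATA-binding protein as TATAAA and the core site of TEAD factors as GGAATG. Sites of AP-1 were searched as TGANTCA, those of GATA factors as AGATAA, and E boxes of the ZEB and SNAIL type as CAGGTG. No matches overlapped.
Upk3b (chr5:136038246-136038495, plus strand): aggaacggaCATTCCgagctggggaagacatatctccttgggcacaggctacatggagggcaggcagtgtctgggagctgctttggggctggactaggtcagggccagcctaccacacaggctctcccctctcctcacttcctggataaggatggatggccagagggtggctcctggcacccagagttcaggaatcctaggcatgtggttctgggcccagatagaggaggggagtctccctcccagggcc
Lrrn4 (chr2:132880863-132881112, minus strand): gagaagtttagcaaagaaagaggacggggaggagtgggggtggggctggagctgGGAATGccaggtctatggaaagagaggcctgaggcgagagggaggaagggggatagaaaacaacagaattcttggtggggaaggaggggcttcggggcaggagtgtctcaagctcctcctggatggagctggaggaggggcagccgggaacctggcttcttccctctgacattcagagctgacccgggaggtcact
Muc16 (chr9:18674604-18674853, minus strand): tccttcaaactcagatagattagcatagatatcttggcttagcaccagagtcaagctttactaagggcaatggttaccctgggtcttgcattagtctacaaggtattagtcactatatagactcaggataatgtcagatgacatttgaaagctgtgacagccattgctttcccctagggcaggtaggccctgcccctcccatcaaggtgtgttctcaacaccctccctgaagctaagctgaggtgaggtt
Pax8 (chr2:24475600-24475849, minus strand): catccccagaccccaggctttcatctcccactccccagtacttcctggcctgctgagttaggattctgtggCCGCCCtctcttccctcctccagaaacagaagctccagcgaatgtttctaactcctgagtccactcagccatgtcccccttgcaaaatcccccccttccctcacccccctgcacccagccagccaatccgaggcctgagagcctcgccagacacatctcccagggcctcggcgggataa

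The windows of Upk3b and Lrrn4 each held 1 match to the TEAD letters, that of Pax8 held 1 GC box, and that of Muc16 held none of the 6 motifs. Among windows not shown, that of Gpm6a also held 1 TEAD match, and that of Wfdc2 held 1 GC box and 1 E box. Among the upstream windows of 27025 genes, 12.6% held the TEAD letters and 32.9% a GC box. The other motifs were in 13% (TATA box), 6.87% (AP-1), 10.3% (GATA) and 17.1% (E box) of the windows. Of the 10 listed genes, 7 had an entry, taking the first where a gene had several starts. Bnc1 stood at the other end, with 5 GC boxes, 39 CpG dinucleotides and 83.6% G and C, where the median window had 6 CpG dinucleotides and 52.0% G and C. Muc16 had 0 CpG dinucleotides and 46.4% G and C. Upk3b had 2 CpG dinucleotides, Lrrn4 had 5 and Pax8 had 6. Such matches are letters only, and binding was not measured here.

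Transcripts that mesothelium and serous tumours share were abundant in every tumour, and Pax8 was not. Values are log2 RPKM, that is log2 of read density scaled to gene length and library size, after the authors' cqn normalization, so levels can be set side by side between genes. The mean over the 6 libraries fell in the order Upk3b 8.14, Wt1 6.47, Msln 6.24, Lrrn4 5.61, Upk1b 5.34, Muc16 5.24, Bnc1 5.10, Gpm6a 4.83 and Pax8 -3.16. From Wt1 down to Gpm6a, neighbours in this order had overlapping ranges over the libraries. Upk3b lay above every library of any other listed gene, and Pax8 below. The plot of the values by library shows the gap of over 5 log2 units between Pax8 and the others.

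**Figure D1:**
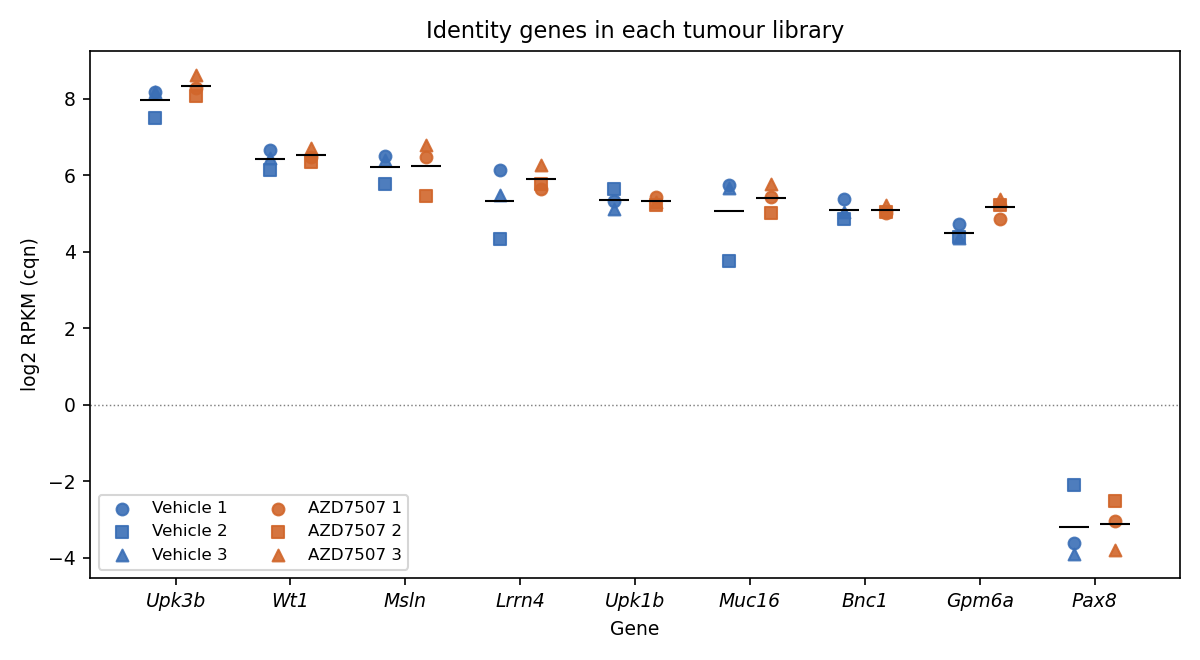
Log2 RPKM of the 9 measured genes in each library, ordered by their mean. Blue marks are vehicle, orange marks AZD7507, circles, squares and triangles are replicates 1, 2 and 3, and black lines are group means of 3 libraries; Pax8 lies below 0 in every library, and the Vehicle 2 square is the lowest mark for Lrrn4 and Muc16.

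Pax8, the Müllerian transcription factor gene (ENSMUSG00000026976, GRCm38 chromosome 2, 24420560 to 24475599, minus strand, in GENCODE M21), was at -3.62, -2.09 and -3.89 with vehicle and at -3.02, -2.52 and -3.79 with AZD7507. The groups overlapped, and in linear terms the highest library held 0.23 RPKM, a level that may come from a handful of reads, since the depth of the libraries is unknown. Between 0.07% and 2.55% of genes had a lower value in the same library. Wt1 was 299-fold to 1457-fold above Pax8 within a library. A gene on the opposite strand, Gm13415, overlaps Pax8 and was not analysed here, and the strand setting of the counting was not given in the sources used here.

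This Pax8 level goes against the Müllerian side of the name given to the gene group, and the measured genes are best described as the set led by Upk3b, Wt1 and Msln. Other transcription factor genes of the list of Müllerian and tubal genes were at mixed levels; they and Epcam are named here after their values were seen. Emx2 ranged from -2.0 to 1.36 over the 6 libraries, Sox17 from -1.05 to 0.30, Lhx1 from -3.30 to 1.13, Hoxa10 from -2.72 to 0.63 and Hoxa9 from -4.02 to -0.02. Foxj1, a ciliated cell factor gene, ranged from -2.22 to -0.57 and Elf3 from -0.14 to 1.19. Mecom was higher, at 1.05 to 2.49, and so was the oestrogen receptor gene Esr1, at 2.24 to 3.04, where the median gene of a library was at 2.32. Among epithelial genes of the same list, Krt18, a keratin gene of simple epithelia, was at 6.89 to 7.47 and the adhesion gene Epcam at 2.26 to 4.46. The files do not separate injected cells from host mesothelium, and in bulk tissue fewer cells of a type and less RNA per cell cannot be told apart.

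AZD7507 left no listed gene past the test. In the limma fit over all 16344 genes, 0 of 9 rose and 0 of 9 fell at a Benjamini-Hochberg adjusted p under 0.05, where 0.0184% of all genes rose and 0.337% fell. At an unadjusted p under 0.05 there was 1 higher gene, Gpm6a, and 0 lower, against 3.31% and 5.49% of all genes. The differences (AZD7507 minus vehicle) were positive for 8 of 9, against 54.5% of all genes, and their median was 0.11 on the log2 scale, against 0.025 over all genes. Without Vehicle 2 only 5 of 9 were positive, with a median of 0.084 against 0.013. Of 10 markers of macrophages, the cells that depend on CSF1R, 6 fell and 0 rose in the same fit.

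**Figure D2:**
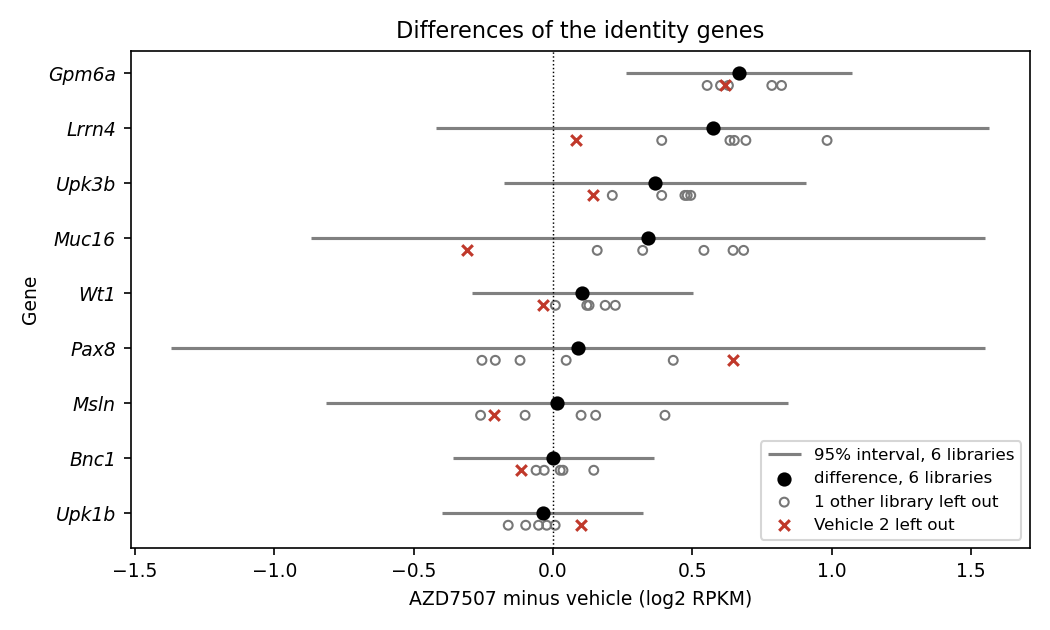
Difference between AZD7507 and vehicle in log2 RPKM for each gene. Black points and grey lines are the limma estimate and its 95% interval from 6 libraries, open circles the estimate with 1 library left out and red crosses the estimate without Vehicle 2; the cross for Muc16 lies at -0.31 and that for Lrrn4 at 0.084.

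The transcription factor genes Wt1 and Bnc1 did not pass, and their spread was near the middle of all genes. The within-group SD was 0.23 for Wt1, larger than in 52.4% of genes, and 0.20 for Bnc1, larger than in 46.0%. Wt1 (ENSMUSG00000016458, chromosome 2, 105126529 to 105173616, plus strand) encodes a zinc-finger factor that mesothelium keeps into adult life, and it was at 6.65, 6.13 and 6.46 with vehicle and 6.49, 6.36 and 6.72 with AZD7507. The ranges overlapped. Its difference was 0.11 (SE 0.17, 95% interval -0.29 to 0.50, limma adjusted p 0.91), so a change of more than 1.42-fold upward lies outside the interval. Without Vehicle 2 it was -0.035.

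Bnc1 (ENSMUSG00000025105, chromosome 7, 81966672 to 81992292, minus strand), which encodes the zinc-finger protein basonuclin 1, was at 5.39, 4.87 and 5.03 with vehicle and 5.03, 5.05 and 5.22 with AZD7507. The AZD7507 libraries lay inside the vehicle range. The group means were 5.10 in both arms, with a difference of 0.00073 (SE 0.15, 95% interval -0.36 to 0.36, limma adjusted p 0.999). Within a library Wt1 stood above Bnc1 by 1.26 to 1.49 log2 units in all 6 tumours. For Pax8 the difference was 0.091 with a wide interval, -1.37 to 1.55, and it ran from -0.25 without Vehicle 3 to 0.65 without Vehicle 2.

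The genes of the adhesion pair did not pass either. Msln (ENSMUSG00000063011, chromosome 17, 25748613 to 25754378, minus strand) encodes mesothelin, a surface glycoprotein held by a lipid anchor, and was at 6.51, 5.78 and 6.41 with vehicle and 6.47, 5.47 and 6.79 with AZD7507. The replicate 2 library was the lowest of each arm. The difference was 0.014 (SE 0.35, 95% interval -0.81 to 0.84, limma adjusted p 0.99), and it ran from -0.26 without AZD7507 3 to 0.40 without AZD7507 2.

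Muc16 (ENSMUSG00000109564, chromosome 9, 18495455 to 18674530, minus strand), the transmembrane mucin gene, was at 5.75, 3.77 and 5.68 with vehicle and 5.44, 5.01 and 5.77 with AZD7507. Vehicle 2 was far below the other 5 libraries, at 13.6 RPKM against 32.1 to 54.6. The difference of 0.34 (SE 0.52, 95% interval -0.87 to 1.55, limma adjusted p 0.90) became -0.31 without Vehicle 2. Within a library, Msln exceeded Muc16 by 2.01 log2 units in Vehicle 2 and by 0.46 to 1.03 in the others. The vehicle mean of this ratio was 1.17 ± 0.73 (SD, n = 3) and the AZD7507 mean 0.84 ± 0.32 (SD, n = 3).

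The uroplakin genes Upk3b and Upk1b did not pass, and their lowest and highest libraries were not the same. Uroplakins are membrane proteins first known from the bladder lining, where a tetraspanin such as UPK1B pairs with a single-pass partner. Upk3b (ENSMUSG00000042985, chromosome 5, 136038496 to 136046487, plus strand), a partner-type uroplakin made in mesothelium, was at 8.17, 7.51 and 8.19 with vehicle and 8.28, 8.07 and 8.63 with AZD7507. That is 183 to 396 RPKM, above 99.4% to 99.9% of genes in the same library. The groups overlapped through AZD7507 2. The difference was 0.37 (SE 0.23, 95% interval -0.18 to 0.91, limma adjusted p 0.73) and shrank to 0.14 without Vehicle 2.

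Upk1b (ENSMUSG00000049436, chromosome 16, 38773184 to 38800328, minus strand), the tetraspanin gene, was at 5.33, 5.63 and 5.11 with vehicle and 5.44, 5.23 and 5.29 with AZD7507. Its highest library was Vehicle 2, the library where Upk3b was lowest. The difference was -0.037 (SE 0.15, 95% interval -0.40 to 0.32, limma adjusted p 0.97), and 0.10 without Vehicle 2. Upk3b therefore stood 1.88 log2 units above Upk1b in Vehicle 2 and 2.83 to 3.34 above it elsewhere. The bladder relative Upk1a, named after its values were seen, was low throughout, at -2.59 to -1.31.

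The neural-type membrane genes gave the widest differences between the arms. Lrrn4 (ENSMUSG00000043110, chromosome 2, 132868305 to 132880891, minus strand) encodes a leucine-rich repeat membrane protein found in mesothelium and in neurons, and was at 6.14, 4.34 and 5.48 with vehicle and 5.65, 5.77 and 6.26 with AZD7507. Vehicle 2 was again the lowest, at 20.3 RPKM against 44.6 to 76.6 elsewhere. The difference of 0.57 (SE 0.42, 95% interval -0.42 to 1.56, limma adjusted p 0.78) fell to 0.084 without Vehicle 2 and rose to 0.98 without Vehicle 1.

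Gpm6a (ENSMUSG00000031517, chromosome 8, 54954843 to 55060871, plus strand) encodes a proteolipid known from neuronal membranes and also found in mesothelium, and was at 4.73, 4.39 and 4.36 with vehicle and 4.86, 5.24 and 5.39 with AZD7507. Each AZD7507 library was above each vehicle library, by 0.13 log2 units at the closest. It was the 1 listed gene of 9 whose groups did not overlap upward, where 7.34% of all genes did, and 0 of 9 did so downward, where 8.02% did. The means were 4.49 ± 0.20 and 5.16 ± 0.28 (SD, n = 3 each), a difference of 0.67 (SE 0.17), or 1.59-fold (95% interval 1.20 to 2.10). The unadjusted p from limma was 0.0057 and the adjusted p 0.25, so it did not pass.

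The size of the Gpm6a difference was 0.55 to 0.82 with 1 library left out, the lowest without AZD7507 3 and the highest without AZD7507 1, with unadjusted p of 0.0021 to 0.023 from limma and no adjusted p under 0.19. In the table as a whole 6.01% of genes had a larger absolute difference. Set against Upk3b in the same library, Gpm6a was at -3.45, -3.12 and -3.83 log2 units with vehicle and -3.42, -2.83 and -3.24 with AZD7507, and these ranges overlapped. The relative Gpm6b, named after its values were seen, was low, at 0.24 to 1.77.

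Single libraries stood out over several of the 9 genes. Vehicle 2 was the lowest of the 6 libraries for 5 of 9 genes (Wt1, Muc16, Upk3b, Lrrn4 and Bnc1), while AZD7507 3 was the highest for 6 of 9. The matching shares over all genes were not computed, so these counts cannot be called particular to the listed genes. Centred on the mean of each gene, the 9 genes averaged -0.39 log2 units in Vehicle 2 against 0.28 in AZD7507 3, while the remaining 4 libraries were at -0.11 to 0.14. The deviations in Vehicle 2 ran from -1.47 for Muc16 and -1.27 for Lrrn4 to 0.29 for Upk1b and 1.06 for Pax8. Those of Wt1 and Bnc1 were -0.34 and -0.23. The range over the 6 libraries was 4.01-fold for Muc16 and 3.77-fold for Lrrn4, but 1.5-fold for Wt1 and 1.43-fold each for Bnc1 and Upk1b. Within-group SD was 0.84 for Muc16, larger than in 96.0% of genes, and 0.20 for Upk1b, larger than in 45.3%.

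**Figure D3:**
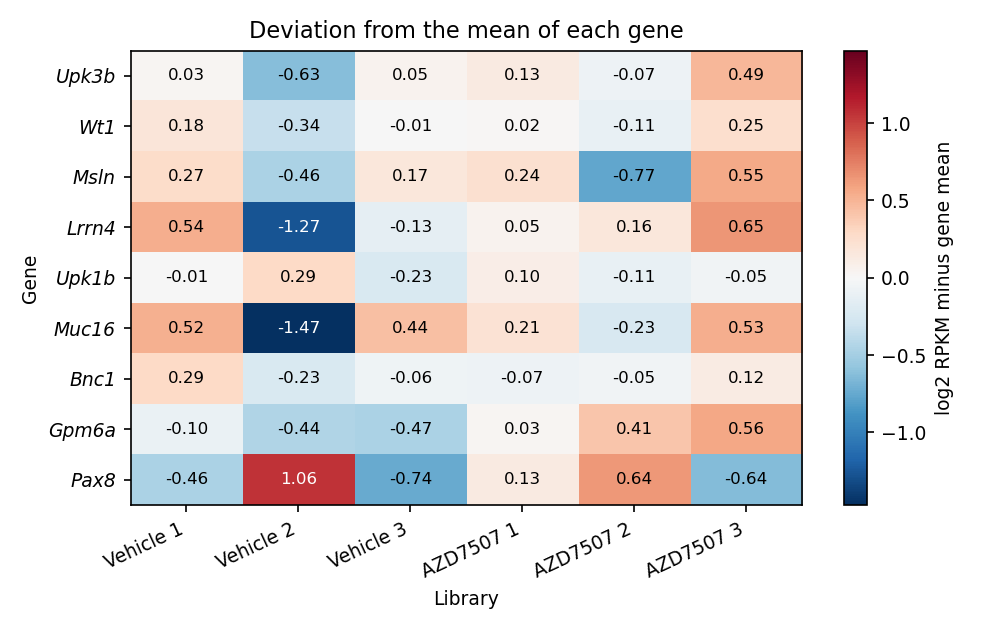
Deviation of each gene from its own mean over the 6 libraries, in log2 RPKM, with libraries in columns. Blue is below and red above the mean; the Vehicle 2 column is blue for 7 of 9 genes and red for Upk1b and Pax8, and the AZD7507 3 column is red for 7 of 9.

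Summed markers of other cell types also differed between libraries, not all in the same direction. Summed over the 9 genes, the level was 442 RPKM in Vehicle 2, against 714 and 649 in the other vehicle libraries and 590 to 862 with AZD7507. Vehicle 2 also held the highest sum of the 10 of 10 measured macrophage markers, 681 RPKM against 423 to 455 in the other vehicle libraries and 85.4 to 206 with AZD7507. Its 10 of 10 fibroblast markers summed to 870 RPKM, against 583 to 722 elsewhere, with the 722 in AZD7507 3. Of these, Dcn, Lum, Col1a2 and Mfap5 were highest in another library, the rest were highest in Vehicle 2, and 0 were lowest there. The 5 measured lymphocyte markers summed to 7.18 RPKM in Vehicle 2 and 2.73 to 6.09 elsewhere. The sum of the 8 endothelial markers was lowest in Vehicle 2, at 39.8 RPKM against 51.6 to 59.1, though only 2 of the 8 were lowest in that library. For adipocyte, smooth muscle and erythrocyte markers the Vehicle 2 sum was neither the lowest nor the highest. These markers' part in the result was not tested.

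Pancreatic acinar transcripts, from cells that secrete digestive enzymes, were high in Vehicle 2 and AZD7507 2. The 9 of 12 measured acinar markers summed to 4904 and 5409 RPKM there, and to 2.35 to 10.6 in the other 4 libraries. Lrrn4 was at 4.34 in Vehicle 2 and 5.77 in AZD7507 2, and Upk3b at 7.51 and 8.07. The part of acinar RNA in these values was not tested. Pax8 was at its highest in those libraries, -2.09 and -2.52, and Msln at its lowest, 5.78 and 5.47. Without both libraries 7 of 9 differences were positive, with a median of 0.15, and 0 of 9 passed (limma, lowest adjusted p 0.27).

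Markers of the other cell types did not pass between the arms. In limma 0 genes rose and 0 fell among the 9 acinar, 10 fibroblast, 5 adipocyte, 8 endothelial, 5 T and B lymphocyte, 6 smooth muscle and 4 erythrocyte markers with a value. Of all genes, 3.31% were higher and 5.49% lower at an unadjusted p under 0.05. Of these markers 0 were higher, and 1 was lower each among fibroblast markers (Mfap5) and lymphocyte markers (Cd4). Their median differences were 0.63 for acinar, -0.26 for fibroblast, 0.49 for adipocyte, 0.15 for endothelial, -0.94 for lymphocyte, 0.11 for smooth muscle and -0.77 for erythrocyte markers.

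**Figure D4:**
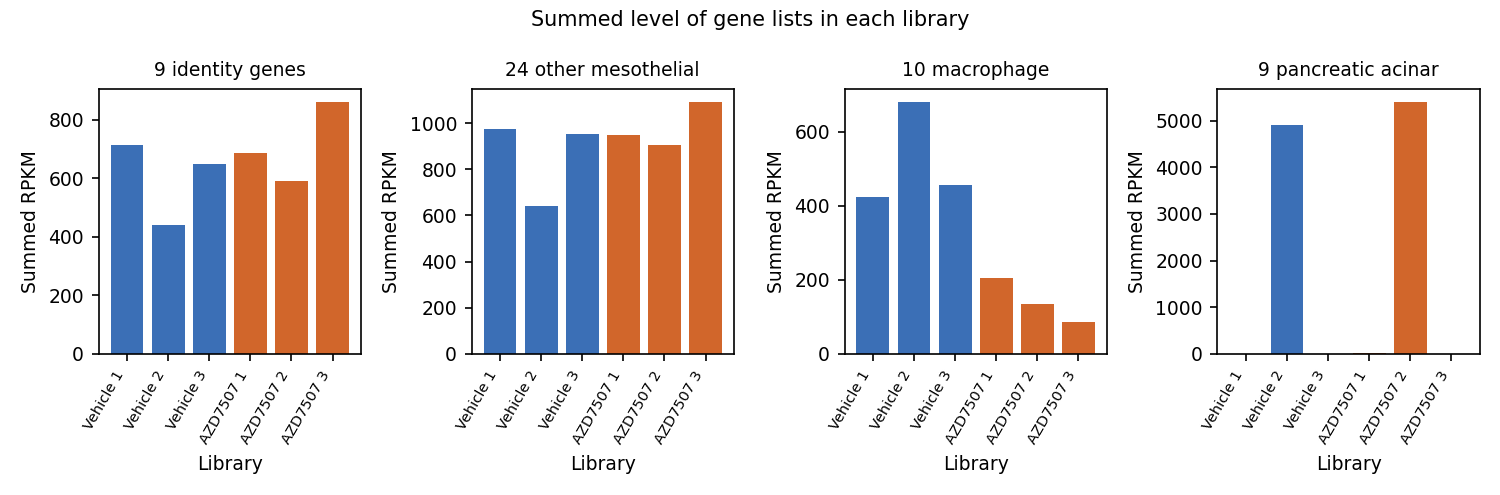
Summed RPKM in each library for the 9 identity genes, 24 other mesothelial genes, 10 macrophage markers and 9 pancreatic acinar markers; each bar is 1 library and each panel has its own axis from 0. The identity and mesothelial bars are shortest in Vehicle 2, where the macrophage bar is tallest, and the acinar bars stand in Vehicle 2 and AZD7507 2.

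Most genes of a wider mesothelial list were also lowest in Vehicle 2, and some were highest there. Of 25 listed genes 24 had a value, and 0 rose and 0 fell (limma adjusted p under 0.05). At an unadjusted limma p under 0.05, 2 were higher and 0 lower, against 3.31% and 5.49% of all genes. The 2 were Bnc2 and the ligand gene Wnt5a, which was named after its values were seen. The median difference of the 24 genes was 0.26, with 19 of 24 positive, against 0.025 and 54.5% positive over all genes. These list values use all 6 libraries and were not computed without Vehicle 2, so they may rest on that library. Vehicle 2 was the lowest library for 16 of the 24, and their sum there was 639 RPKM against 903 to 1093 in the others. The share of all genes lowest in Vehicle 2 was not computed, so the count cannot be called particular to mesothelial genes. The 4 most abundant were Krt19, a keratin gene, at 7.17 in Vehicle 2 and 7.66 to 8.08 elsewhere, Igfbp5, which encodes a binder of insulin-like growth factors, Ezr, the gene of the membrane-to-actin linker ezrin, and Podxl, which encodes a sialomucin. Igfbp5 was at 4.49 in Vehicle 2 and 6.81 to 7.60 elsewhere, and its difference of 0.59 turned to -0.37 without that library. Ezr was at 6.57 ± 0.31 and 6.83 ± 0.22 (vehicle and AZD7507, SD, n = 3 each). Podxl was at 6.0 ± 0.71 and 6.31 ± 0.47 in the same order, and its difference of 0.31 was -0.096 without Vehicle 2. Leaving out that library also took Krt19 and Ezr from 0.26 each to 0.029 and 0.088, while Bnc2 went from 0.38 to 0.47. Other genes of the list, Slpi, Prg4, Efemp1 and Tcf21, named after their values were seen, were instead highest in Vehicle 2. Slpi was at 3.42 there and 0.66 to 1.70 elsewhere. Prg4 was at 4.06 in Vehicle 2 and 0.90 to 3.16 elsewhere, and Efemp1 at 4.09 and 2.34 to 3.35. Tcf21 was nearly level in Vehicle 2 and AZD7507 2, at 0.054 and 0.047.

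Other Müllerian and tubal epithelial genes did not pass either. Of 25 listed, 18 had a value, and 0 rose and 0 fell in limma. At an unadjusted p under 0.05, 2 were higher and 0 lower, against 3.31% and 5.49% of all genes. The median difference was 0.19, with 13 of 18 positive, against 54.5% of all genes. These list values were not computed without Vehicle 2. The 2 higher genes were the partner keratin genes Krt8 and Krt18. Krt18 was at 6.93, 6.89 and 7.24 with vehicle and 7.37, 7.44 and 7.47 with AZD7507, without overlap, a difference of 0.41 (SE 0.13, limma adjusted p 0.42). Krt8 was at 4.23, 4.41 and 4.67 and at 4.78, 4.76 and 4.93, again without overlap, a difference of 0.39 (SE 0.14, limma adjusted p 0.46). Of all genes, 7.34% did not overlap upward. Unlike Muc16 and Lrrn4, these keratin genes were not set apart in Vehicle 2. Krt7 differed by 0.38 and the protease inhibitor gene Spint2 by 0.24. Without Vehicle 2, Spint2 was at -0.010 and Krt7 at 0.11, while Krt8 was at 0.38 and Krt18 at 0.34.

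Relatives of the listed genes were mostly low or not analysed here. Of 24 relatives, 11 had a value, with 0 calls in either direction in limma and a median difference of 0.10. There was 1 higher gene and 0 lower at an unadjusted p under 0.05, against 3.31% and 5.49% of all genes. Bnc2, the second basonuclin gene, was at 3.73 ± 0.16 with vehicle and 4.10 ± 0.25 with AZD7507 (SD, n = 3 each), a difference of 0.38 (limma adjusted p 0.54). It was the 1 higher gene, and is the same Bnc2 already counted in the mesothelial list. Slpi and Lrrn4cl are also in both lists. Egr1, a zinc-finger gene of the family nearest to Wt1, differed by 0.39, Lrrn4cl by 0.10 and Wfdc1, of the same protein family as Wfdc2, by 0.031. Wfdc1 was -0.24 without Vehicle 2. The mucin gene Muc1, named after its values were seen, was highest in the acinar-rich libraries, at 2.04 and 2.96, and at -1.16 to -0.03 in the other 4.

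The genes most like each listed gene were sought by the root mean square difference between log2 profiles over the 6 libraries, each centred on its own mean. Genes named Gm plus digits, ending in Rik or without a symbol were left out. Nearest to Muc16 were Mro (0.047 log2 units), Strip2 and Ccdc194, and nearest to Lrrn4 were Gbp2b (0.10), Btbd17 and Exph5. Upk3b was closest to Igsf9b (0.048), Lpar2 and Rhbdl3, and Gpm6a to Qpct (0.11), Col4a5 and Hook1. Wt1 was closest to Slc29a2 (0.023) and to Mcm2 and Mcm6, genes of the replication helicase. For Msln they were Rbm28 (0.075), Tfcp2l1 and Pyroxd2, for Upk1b Ctu2 (0.037), Chchd5 and Dera, for Bnc1 Tgoln1 (0.036), Ints1 and Rccd1, and for Pax8 Olr1 (0.17), Scd1 and Zfp503. No listed gene was among the 3 nearest of another. The closest listed pair was Wt1 and Bnc1, at 0.095, and Lrrn4 and Muc16 were each other's nearest listed gene, at 0.31. All profiles share the same 6 libraries, and a nearly flat profile is matched by many genes.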

How the data were processed

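Total RNA of 6 tumours was depleted of ribosomal RNA and sequenced, per the labels' protocols. The authors deposited log2 RPKM values, which the table's name says were cqn-normalized. The submitters' processing notes name BWA 0.7.15-r1140, HTSeq, mm10 and GRCm38. Which annotation release and which cut-off for low genes were used is not given in the sources used here. Depth is unknown and arm-wide shifts in RNA content cannot be seen, because library medians (2.32) and upper quartiles (3.52) were equal.

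Symbols matched 16306 of 16344 identifiers. Groups came from the treatment label and replicates follow record order. The deposited log2 values entered limma unchanged, using version 3.58.1 (R 4.3.3, trended robust prior), with no pseudocount or filter, 2-sided, Benjamini-Hochberg over all genes, threshold 0.05. The fit was tested on simulated data. The listed genes and the 11 other lists were chosen with earlier results of these data known. Named genes were all measured members, the 4 most abundant of each of the 3 related lists, and the 3 nearest profiles of each member. Other names are said to follow their values, or are cell markers. Promoters came from RefSeq, positions from GENCODE M21.

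Alternatives concerned the prior (constant variance), low genes (mean log2 RPKM of at least 0), the pseudocount (1 or 0.1), scaling (median centring or quantile normalization), array weights, and the libraries (leaving out each, or both acinar-rich ones).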

Additional observations from a re-analysis of the deposited data

How the results depend on the processing

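No listed gene passed under any of the 14 alternatives, with 8 of 9 left to test at a minimum mean log2 RPKM of 0, which removed Pax8. Upk3b, Lrrn4 and Gpm6a stayed positive in all of them. Median centring and quantile normalization could show little, since library medians and upper quartiles were already equal. Quantile normalization moved the difference of Pax8 from 0.091 to 0.20 and left those of the other listed genes unchanged. The count of lower genes in the whole table (55) was 143 with array weights, 13 without both acinar-rich libraries and 0 to 14 with 1 library left out; the count of higher genes (3) was 1 with a constant variance prior, 14 with array weights, 1 without both acinar-rich libraries and 0 with any 1 library left out, where 606 to 1359 lower and 257 to 1082 higher genes had an unadjusted p under 0.05 in limma. Several differences changed sign, near 0 or larger. With a pseudocount of 1 Pax8 was at -0.0034. With array weights Muc16 was at -0.038, Upk1b at 0.14, Bnc1 at -0.030, Spint2 at -0.059, Igfbp5 at -0.11 and Wfdc1 at -0.20. Without both acinar-rich libraries these were -0.11, 0.15, -0.088, -0.13, -0.39 and -0.34. With 1 library left out the ranges were -0.25 to 0.65 for Pax8, -0.035 to 0.22 for Wt1, -0.26 to 0.40 for Msln, -0.31 to 0.68 for Muc16, -0.16 to 0.10 for Upk1b, -0.11 to 0.15 for Bnc1, -0.096 to 0.54 for Podxl, -0.37 to 1.18 for Igfbp5, -0.010 to 0.40 for Spint2 and -0.24 to 0.19 for Wfdc1. The cause was not tested. No paired analysis was possible because the labels give no number or animal shared between the groups.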

Other observations

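Retinoid enzyme and GATA factor genes of the mesothelial list were lowest in Vehicle 2, except Aldh1a2. Aldh1a2, which encodes a retinoic acid synthesising enzyme of the mesothelial lining, was at 5.05 ± 0.09 with vehicle and 5.21 ± 0.24 with AZD7507 (SD, n = 3 each), with its lowest library in AZD7507 1. Its relative Aldh1a1 was at 4.75 in Vehicle 2 and 5.15 to 6.25 elsewhere. The GATA factor gene Gata4 was at 2.58 in Vehicle 2 and 3.83 to 4.73 elsewhere, and Gata6 was at 4.47 in Vehicle 2 and 4.54 to 5.01 elsewhere. These genes were chosen after their values were seen.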
